A study of Mus musculus with 2 samples.

Results

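The genes described here are 32 mouse cell cycle genes out of the 32285 genes counted, taken by symbol and not by any measured value. They fall into 20 genes used in the G2 phase and mitosis (G2/M) and 12 genes used in the DNA synthesis phase (S phase). The RNA came from pituitaries of C57BL/6 mice, inbred animals that were all male, at an old age of 20 months and a young age of 2 months. For each age 10 glands were pooled and gave 1 droplet-based 3′ single-cell RNA library. No difference between the ages could therefore be tested, and every interval is a 95% interval of counting error only, which leaves out differences between mice, pools and preparations.

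A cell that divides first copies its DNA and then separates the copies in mitosis. The E2F factors drive genes for copying DNA as a cell enters S phase. Complexes with B-MYB, which bind CHR elements often found beside CCAAT boxes, drive genes for mitosis later, so mitotic transcripts mark cells close to division. Hormone cells and stem cells of the pituitary divide often in the first weeks of life and more rarely in adult glands. Malat1 is a long non-coding RNA kept in the nucleus, and its share of a barcode's RNA is often read as a sign of how much nuclear RNA a droplet holds.

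Totals were similar, with 138427393 UMIs (unique molecular identifiers, 1 for each transcript caught) in the old library and 154510099 UMIs in the young library. Barcodes with at least 2000 UMIs, 500 genes and at most 15% mitochondrial UMIs were kept after doublet removal, 9017 old and 8531 young. A cluster of 5536 old and 1 young barcodes matched the profile of empty droplets and is called free RNA here. Values below are from the other 3481 old and 8530 young barcodes, whose median was 5850 UMIs in the old and 6304 in the young library. The libraries shared 15 of these barcode sequences. Cells were clustered without the cell cycle genes, and clusters were named from marker genes as "like" a type. A cluster led by Cdca3, Cenpa and Cdc20 and a cluster led by S100a9, S100a8 and Ngp stayed unnamed. Levels are CPM, UMIs scaled to a common total that leaves out hormone and mitochondrial genes. Counts were not scaled to gene length, and levels are not compared between genes.

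The promoters of 6 members whose ratios are given below are printed to show where these elements occur in them. Promoters of 27 of the 32 members were found in RefSeq (build GRCm38.p6), and the 120 bases before the annotated start are printed 5′ to 3′ on the gene's strand. Capitals mark TTTGAA (the CHR element), CCAAT and the E2F forms TTTCCCGC, TTTGGCGC, TTTCGCGC and TTTGCCGC, on either strand. The first 3 belong to G2/M genes and the last 3 to S phase genes. All 3 printed G2/M promoters hold both TTTGAA and CCAAT, whereas only 7 of 17 G2/M promoters hold TTTGAA, so they do not represent the list.
Cdk1, chr10:69352913-69353032, minus strand: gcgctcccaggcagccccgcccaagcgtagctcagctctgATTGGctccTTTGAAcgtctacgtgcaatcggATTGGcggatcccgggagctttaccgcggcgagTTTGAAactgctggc
Cdc20, chr4:118437344-118437463, minus strand: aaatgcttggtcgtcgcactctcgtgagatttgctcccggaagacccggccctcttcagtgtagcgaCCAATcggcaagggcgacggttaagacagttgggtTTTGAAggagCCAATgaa
Top2a, chr11:99024190-99024309, minus strand: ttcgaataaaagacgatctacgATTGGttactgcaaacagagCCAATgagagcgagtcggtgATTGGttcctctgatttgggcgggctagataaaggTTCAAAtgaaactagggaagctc
Rrm2, chr12:24708134-24708253, plus strand: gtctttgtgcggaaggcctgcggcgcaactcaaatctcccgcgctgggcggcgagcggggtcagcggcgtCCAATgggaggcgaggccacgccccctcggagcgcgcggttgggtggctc
Mcm6, chr1:128359706-128359825, minus strand: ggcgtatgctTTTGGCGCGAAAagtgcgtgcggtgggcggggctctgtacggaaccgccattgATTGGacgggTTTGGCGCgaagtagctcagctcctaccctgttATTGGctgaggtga
Pcna, chr2:132253181-132253300, minus strand: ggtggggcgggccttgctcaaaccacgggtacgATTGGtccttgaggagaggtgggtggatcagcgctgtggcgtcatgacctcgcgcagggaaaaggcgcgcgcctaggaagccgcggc
In the 250 bases before the start, CCAAT on either strand was present in 15 of 17 promoters of G2/M members (88.2%), in 7 of 11 promoters of S phase members (63.6%) and in 33.8% of all 32851 promoters in the table. TTTGAA was present in 7 of 17 G2/M, 1 of 11 S phase and 16.0% of all promoters. The E2F forms, which overlap one another in Mcm6, were present in 1 of 17 G2/M, 3 of 11 S phase and 1.86% of all promoters. Prc1 has 2 promoters in the table, so the 17 belong to 16 genes. A match says only that the letters occur in this window.

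G2/M genes were lower in the old library as a group, whereas the S phase sum differed less. Pcna alone gave 1798 of the old and 3996 of the young S phase UMIs, at a ratio of 1.03, and weighs most on that sum. Of the 12 S phase genes 10 had a ratio below 1, with a median of 0.859. The 20 G2/M genes summed to 2139 UMIs (92.2 CPM) in old barcodes and 10784 UMIs (203 CPM) in young ones, a ratio of old over young of 0.455 (0.434 to 0.477). The 12 S phase genes summed to 3419 UMIs (147 CPM) in old and 8438 UMIs (158 CPM) in young barcodes, a ratio of 0.930 (0.894 to 0.968). The S phase ratio was 1.11 (1.06 to 1.15) when CPM were taken over all UMIs, hormones included, so its direction depends on the total. The median of all 17685 genes with at least 20 UMIs was a ratio of 1.03. With the classes of the old library weighted as in the young one, the G2/M ratio was 0.239.

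A single old barcode held 995 of the 2139 old G2/M UMIs, 46.5% of them. It had 57828 UMIs in all, UMIs of all 20 G2/M genes, 63 UMIs of Pou1f1, the factor that marks the somatotroph and lactotroph lineage, and 0.859% of its UMIs from Gh. Without it and without the young barcode with the most G2/M UMIs, which held 456 of them, the G2/M ratio was 0.255 (0.239 to 0.271), from 1144 old and 10328 young UMIs. Both barcodes were picked by their G2/M UMIs, and the young one held only 4.23% of its library's sum. Leaving them out therefore lowers the G2/M ratio by choice, here and for the single genes below. The S phase ratio was then 0.934 (0.897 to 0.972), close to the value with them. The 5 old barcodes with the most G2/M UMIs held 62.6% of the old sum, against 16.6% for the young 5, so old values of single G2/M genes rest on few cells.

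All 20 G2/M genes had a ratio below 1, and for 19 the interval lay below 1. At least 2-fold lower were 13 of 20, beside 2.78% of all genes, and none of the 20 was at least 2-fold higher, beside 8.8% of all genes. The median ratio of the 20 was 0.439. Without the top barcode of each library 19 of 20 were at least 2-fold lower, beside 2.9% of all genes, the interval of each of the 20 lay below 1, and the median was 0.25. These barcodes were picked by their G2/M UMIs, so the lower values show how much rests on them and are no further evidence of a difference. Of the 12 S phase genes, 1 was at least 2-fold lower and none at least 2-fold higher, with a median ratio of 0.859.

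**Figure D1:**
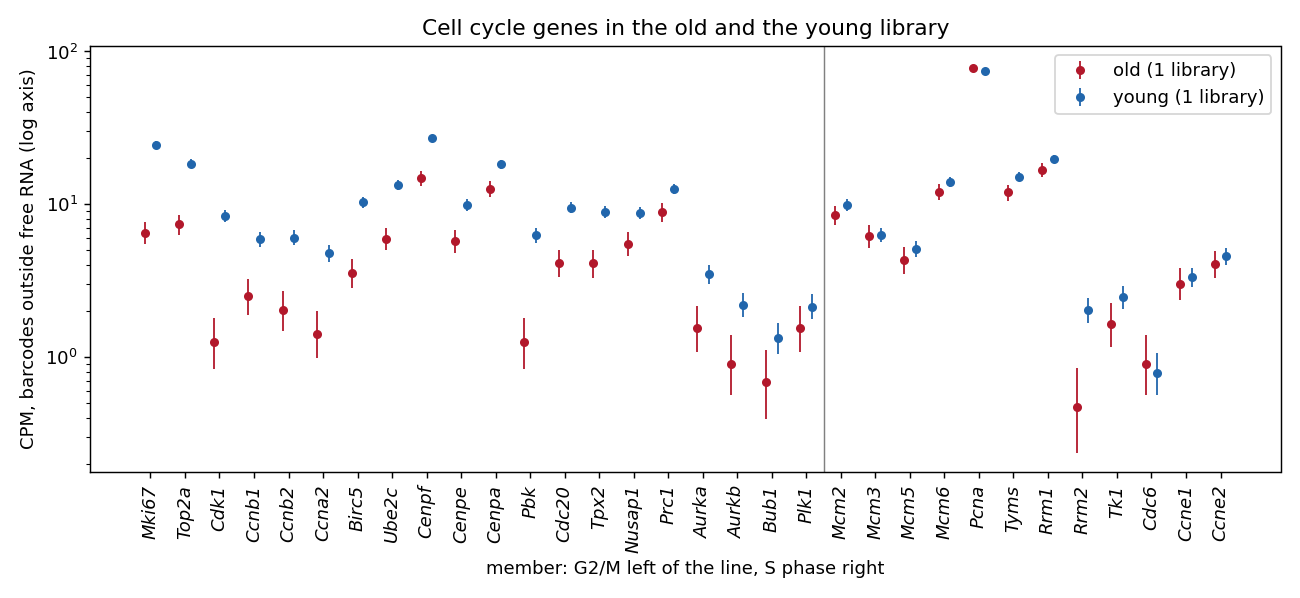
CPM of each of the 32 genes (log axis) in old (red, left of each pair) and young barcodes (blue, right), with 95% counting intervals and 1 library per age. All 20 G2/M genes lie lower in the old library, while most S phase pairs lie close together, with Rrm2 at 0.474 CPM in old and 2.03 CPM in young barcodes as the exception.

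Among the kinase and its cyclins, Cdk1, the kinase that starts mitosis, had 29 UMIs (1.25 CPM) in old and 446 (8.38 CPM) in young barcodes, the lowest ratio of the 20 at 0.149 (0.0988 to 0.217). Its partner Ccnb1, cyclin B1, had 58 UMIs in 14 old and 314 UMIs in 121 young barcodes, a ratio of 0.424 (0.315 to 0.563). Ccnb2, cyclin B2, had 47 old and 322 young UMIs, a ratio of 0.335 (0.241 to 0.456). All 3 were low in the old library, and the cyclin B pair rested there on 14 barcodes each. The top barcode held 38 of the old Ccnb1 and 27 of the old Ccnb2 UMIs. Without the top barcodes Ccnb1 was at 0.152 (0.0916 to 0.239) and Ccnb2 at 0.145 (0.0876 to 0.229). Ccna2, cyclin A2, which serves both S phase and G2, had 33 old and 255 young UMIs, a ratio of 0.297 (0.200 to 0.428).

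Mki67, the protein that coats mitotic chromosomes and the usual histological marker of dividing cells, had 151 UMIs in 42 old and 1310 UMIs in 321 young barcodes, a ratio of 0.265 (0.222 to 0.313). Top2a, the topoisomerase that untangles the copied DNA, had 171 UMIs in 38 old and 984 UMIs in 197 young barcodes, a ratio of 0.399 (0.337 to 0.470). The top old barcode weighed on Top2a more than on Mki67. Without the top barcodes Top2a was at 0.282 (0.231 to 0.343) and Mki67 at 0.246 (0.204 to 0.295).

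Of the mitotic kinases, Aurka had 36 old and 185 young UMIs, a ratio of 0.447 (0.303 to 0.641), and Aurkb, the kinase of the chromosomal passenger complex, had 21 old and 117 young UMIs, a ratio of 0.412 (0.246 to 0.659). Birc5 (survivin), a partner of Aurkb in that complex, had 82 UMIs in 15 old and 549 UMIs in 150 young barcodes, a ratio of 0.343 (0.268 to 0.433). The top barcode held 46 of the old Birc5 UMIs, and without the top barcodes the ratio was 0.154 (0.107 to 0.216). Bub1, a kinase of the spindle checkpoint, had 16 old and 71 young UMIs, a ratio of 0.517 (0.281 to 0.899). Plk1, polo-like kinase 1, was the only G2/M gene whose interval reached 1. It had 36 old and 114 young UMIs, a ratio of 0.725 (0.484 to 1.06), but 31 of the 36 old UMIs came from the top barcode, and without the top barcodes the ratio was 0.109 (0.0348 to 0.264). Pbk, a mitotic kinase, had 29 UMIs in 3 old and 333 UMIs in 106 young barcodes, a ratio of 0.20 (0.132 to 0.292), and 0.0507 (0.0202 to 0.106) without the top barcodes.

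Cdc20, an activator of the anaphase-promoting complex, had 96 old and 507 young UMIs, a ratio of 0.435 (0.346 to 0.542). Ube2c, a ubiquitin-conjugating enzyme of that complex, had 138 old and 715 young UMIs, a ratio of 0.443 (0.366 to 0.532). Both were at least 2-fold lower in the old library. The top barcode held 50 of the old Cdc20 and 51 of the old Ube2c UMIs. Without the top barcodes Cdc20 was at 0.214 (0.155 to 0.290) and Ube2c at 0.299 (0.237 to 0.375).

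The spindle genes Tpx2, Nusap1 and Prc1, which bind microtubules, had ratios of 0.457 (0.363 to 0.571), 0.628 (0.512 to 0.765) and 0.702 (0.597 to 0.821). Of the 206 old Prc1 UMIs, 135 came from the top barcode, and without the top barcodes the Prc1 ratio was 0.255 (0.197 to 0.326). The centromere and kinetochore genes Cenpf, Cenpe and Cenpa had ratios of 0.544 (0.482 to 0.612), 0.578 (0.474 to 0.701) and 0.690 (0.603 to 0.787). Without the top barcodes Cenpf was at 0.134 (0.106 to 0.168), with 261 of its 342 old UMIs in the top old barcode. Cenpa, the centromeric histone H3 variant, was then the only G2/M gene less than 2-fold lower, at 0.509 (0.437 to 0.591).

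S phase genes differed less between the libraries. Among the subunits of the MCM helicase, which unwinds DNA at origins, Mcm6 had 281 old and 747 young UMIs, a ratio of 0.863 (0.750 to 0.992). Mcm2 was at 0.854 (0.721 to 1.01), Mcm5 at 0.844 (0.664 to 1.06) and Mcm3 at 0.980 (0.80 to 1.20). The interval lay below 1 for Mcm6 and reached 1 for the other 3 subunits. Cdc6, which loads the helicase, had only 21 old and 42 young UMIs, a ratio of 1.15 (0.646 to 1.98).

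Pcna, the sliding clamp of DNA polymerases, had 1798 UMIs in 1202 old and 3996 UMIs in 2723 young barcodes, a ratio of 1.03 (0.976 to 1.09). It thus gave 1798 of the 3419 old and 3996 of the 8438 young S phase UMIs, the most of the 12 genes. The cyclins of S phase entry, Ccne1 and Ccne2, were at 0.908 (0.678 to 1.20) and 0.888 (0.692 to 1.13).

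The 3 lowest ratios among S phase genes were those of genes of nucleotide supply. Rrm2, the regulated small subunit of ribonucleotide reductase, had 11 UMIs in 5 old and 108 UMIs in 51 young barcodes, a ratio of 0.234 (0.113 to 0.435), and was the 1 S phase gene at least 2-fold lower. Tk1, thymidine kinase, was at 0.666 (0.451 to 0.962), with 38 old and 131 young UMIs. Tyms, thymidylate synthase, was at 0.787 (0.684 to 0.903). Rrm1, the large subunit of the enzyme that Rrm2 belongs to, was nearer to 1, at 0.851 (0.756 to 0.957).

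The difference in G2/M genes was also present in barcodes too small to be kept, which were not used in the sums above. In barcodes of 1 to 100 UMIs, taken as empty droplets, the 20 genes stood at 37.2 CPM in the old and 131 CPM in the young library. Over all barcodes of any size the ratio was 0.290 (0.281 to 0.300) for G2/M and 0.919 (0.897 to 0.941) for S phase genes. S phase genes in empty droplets stood at 138 CPM in the old and 172 CPM in the young library, near their level in kept barcodes, and the part of free RNA in the S phase sums was not tested beyond subtracting the empty profile. With that profile subtracted, scaled to the hormone share of T or NK cell-like barcodes, the ratio was 0.468 for G2/M and 0.953 for S phase genes.

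G2/M transcripts were concentrated in few barcodes, here called G2/M carriers, with UMIs of at least 3 different G2/M genes. Carriers were 13 of 3481 old barcodes, 0.373% (0.199 to 0.638), and 190 of 8530 young barcodes, 2.23% (1.92 to 2.56). After thinning each barcode to 2000 UMIs they were 9 old, 0.259% (0.118 to 0.490), and 120 young, 1.41% (1.17 to 1.68). The exact intervals do not overlap. No B cell-like barcode was a carrier, 0 of 84 old and 0 of 124 young, so that 3 counts would be shares of 3.57% and 2.42%, and no barcode of the free RNA cluster was one. The limit of 3 genes was set with earlier results of these data known. Barcodes with 2 of the genes numbered 57 old and 204 young, and with exactly 3 of them 3 old and 46 young. All 20 genes were present in 1 old and 16 young barcodes.

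Carriers held 1448 of the old and 8856 of the young G2/M UMIs. In the remaining barcodes the G2/M sum was 30.0 CPM in the old and 37.3 CPM in the young library, a ratio of 0.805 (0.737 to 0.878), which the choice of carriers lowers in both libraries. S phase genes in these barcodes were at 145 CPM in the old and 142 CPM in the young library, a ratio of 1.02 (0.980 to 1.06). The S phase genes differed in how much of their UMIs lay in G2/M carriers. G2/M carriers held 2.81% of young UMIs but 84.3% of young Rrm2, 50% of young Cdc6 and 48.9% of young Tk1 UMIs. They held only 6.83% of young Pcna, 9.68% of Mcm2 and 10.6% of Mcm6 UMIs.

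Detection in the same barcode followed these shares. Of 51 young barcodes with Rrm2, 36 (70.6%, 56.2 to 82.5) also had Top2a, against 2.31% of all young barcodes with Top2a. Of 2723 young barcodes with Pcna, 110 (4.04%, 3.33 to 4.85) had Top2a, and of 630 with Mcm6, 51 (8.10%, 6.09 to 10.5). Deeper barcodes are more likely to hold any gene, and this was not removed from these shares. In the old library 3 of 5 barcodes with Rrm2 and 18 of 1202 with Pcna (1.5%, 0.890 to 2.36) had Top2a, against 1.09% of all old barcodes.

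S phase carriers, barcodes with UMIs of at least 3 of the 12 S phase genes, had shares whose intervals overlapped between the ages with and without equal depth. Without thinning they were 194 old (5.57%, 4.83 to 6.39) and 385 young barcodes (4.51%, 4.08 to 4.98), with medians of 17063 and 15612 UMIs. After thinning they were 9 old (0.259%, 0.118 to 0.490) and 31 young ones (0.363%, 0.247 to 0.515). Overlap at such small counts does not show that the shares are equal.

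Old carriers were mostly immune-like cells. Of the 13, 6 were monocyte-like, 4 T or NK cell-like, 2 corticotroph-like and 1, the top barcode, lay in the cluster led by S100a9. No carrier was found among 1123 old somatotroph-like barcodes, where 3 counts would be a share of 0.267%, against 27 of 3987 young ones (0.677%, 0.447 to 0.984). Stem cell-like cells, the Sox2-positive progenitors of the gland, held 0 carriers among 279 old and 13 among 978 young barcodes (1.33%, 0.710 to 2.26). The upper limits of the exact old intervals were 0.328% for somatotroph-like and 1.31% for stem cell-like cells. Macrophage-like cells held 0 carriers among 415 old barcodes, with an upper limit of 0.885%, and 13 among 750 young ones (1.73%, 0.926 to 2.95). Lactotroph-like cells, the prolactin producers, held carriers in 0 of 283 old and 5 of 410 young barcodes. These shares were not thinned, and the median depth of somatotroph-like barcodes was 6622 UMIs in the old and 9697 UMIs in the young library. After thinning, young carriers were 7 somatotroph-like (0.176%, 0.0706 to 0.361), 8 stem cell-like (0.818%, 0.354 to 1.61), 9 macrophage-like (1.20%, 0.550 to 2.27) and 2 lactotroph-like barcodes (0.488%, 0.0591 to 1.75), against 0 old ones in each. At equal depth the old and young intervals overlapped in all 4 classes. The count of young somatotroph-like carriers also depended on the clusters and filters, at 2 with Leiden resolution 0.5, 4 with resolution 2, 9 without doublet removal and up to 29 at a minimum of 800 genes, and no old one was found under any of these settings.

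**Figure D2:**
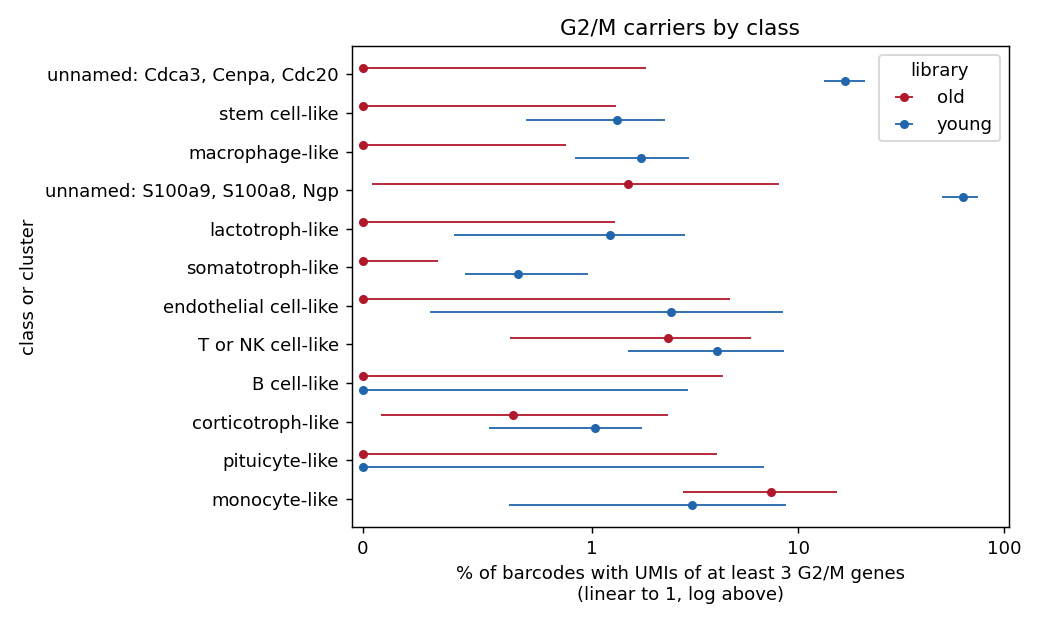
Percent of barcodes, not thinned, with UMIs of at least 3 G2/M genes in each class or unnamed cluster with at least 50 barcodes per library (linear to 1%, log above), in old (red, upper of each pair) and young (blue, lower), with exact binomial intervals. Old points lie at 0 in 8 of the 12 rows, and the largest young shares are in the 2 unnamed clusters.

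Most young carriers lay outside the named classes. The cluster led by Cdca3, Cenpa and Cdc20 held 65 carriers among 385 young barcodes (16.9%, 13.3 to 21.0) and 0 among 200 old ones. Its barcodes were shallow, with medians of 3027 UMIs in the old and 3507 in the young library, poor in Malat1 and rich in Gh. The cluster led by S100a9, S100a8 and Ngp held 39 carriers among 62 young barcodes and 1 among 67 old ones. It mixes different cells. Of its 39 young carriers 32 had UMIs of Pou1f1 and 2 of S100a8, a neutrophil gene, while all 23 other young barcodes had S100a8. Without the 2 unnamed clusters thinned carriers were 8 of 3214 old (0.249%, 0.108 to 0.490) and 33 of 8083 young barcodes (0.408%, 0.281 to 0.573), whose intervals overlap. Not thinned, they were 12 old and 86 young barcodes. Overlap of intervals at such counts does not show that the shares are equal. Both clusters have G2/M genes among their leading genes, so leaving them out takes away many carriers by choice. The G2/M sum without the 2 clusters was at a ratio of 0.587 (0.550 to 0.627).

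Summed over a class, G2/M genes were lower in the old library in 9 of the 10 named classes with at least 50 barcodes in each library, with the interval below 1 in 8. S phase sums were below 1 in 5 of the 10 and above 1 in the other 5. In stem cell-like cells G2/M genes had 35 old UMIs (14.5 CPM) and 1027 young ones (139 CPM), a ratio of 0.104 (0.0722 to 0.146). In macrophage-like cells they had 65 old UMIs (29.7 CPM) and 574 young ones (162 CPM), a ratio of 0.184 (0.140 to 0.238). These were the lowest ratios among named classes.

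**Figure D3:**
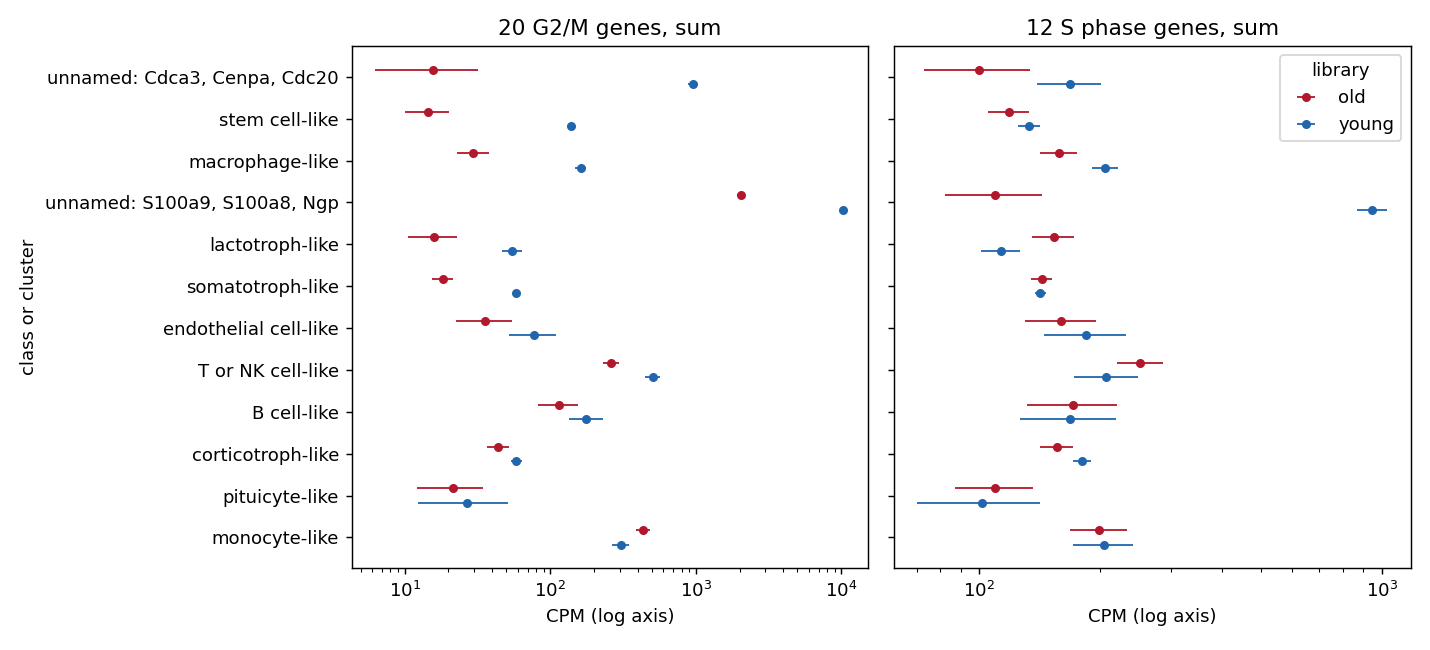
Summed CPM (log axes) of the 20 G2/M genes (left) and 12 S phase genes (right) by class or cluster, in old (red, upper of each pair) and young (blue, lower), with 95% counting intervals, ordered by the G2/M ratio. G2/M sums are lower in old in every row except the monocyte-like one, while the S phase pairs mostly overlap.

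In stem cell-like cells the difference was seen in each measured G2/M gene, but these genes share a few young cells and are not separate results. All 16 G2/M genes with at least 20 UMIs there were at least 2-fold lower in the old library, beside 2.28% of all genes, and 1 of 10 S phase genes, Tk1, was. The limit of 20 UMIs is over both libraries, and 6 of the 16 had 0 old UMIs, so they passed it through young cells alone. No member was at least 2-fold higher there, beside 4.32%. Cenpf had 0 UMIs in old and 172 in young stem cell-like cells, at least 18.7-fold lower against a floor of 3 counts in the old sum. Top2a, with 0 old and 67 young UMIs, was at least 7.30-fold lower, and Mki67 had 2 old and 67 young UMIs, a ratio of 0.0913 (0.0108 to 0.343). The median over the 16 was 0.158 with genes at 0 put at that floor, against 1.02 over all genes. The young UMIs lay in few cells: 13 barcodes held Top2a and 20 held Mki67. The size of this ratio depends on the clusters and filters. It was 0.490 (0.333 to 0.703), with 3 of 4 measured genes at least 2-fold lower, when the cell cycle genes were left in the clustering. It was 0.422 at a mitochondrial limit of 10%, 0.403 without doublet removal and 0.344 at a limit of 25%, and between 0.101 and 0.130 under the other 4 settings, so the direction held and the size did not.

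In somatotroph-like cells, the growth hormone producers and the largest class, 11 of 17 measured G2/M genes were at least 2-fold lower in the old library, beside 4.33% of all genes, and none was at least 2-fold higher, beside 5.05%. The G2/M sum was 136 UMIs (18.2 CPM) in old and 1574 UMIs (58.3 CPM) in young cells, a ratio of 0.313 (0.261 to 0.373). Mki67 had 2 UMIs in 2 old and 240 UMIs in 141 young cells, and Top2a had 1 UMI in 1 old and 130 UMIs in 72 young cells. Their ratios were 0.0302 (0.00364 to 0.110) and 0.0279 (0.000700 to 0.158). Ccnb2 had 0 old and 42 young UMIs, at least 3.86-fold lower. Other G2/M genes differed less, such as Ccna2, with 9 old and 36 young UMIs and a ratio of 0.906. Of 10 S phase genes Rrm2 alone was counted as lower, from 0 old and 20 young UMIs, and against the floor of 3 counts it was at least 1.84-fold lower, short of the limit. The S phase sum was at 143 CPM in old and 142 CPM in young cells, a ratio of 1.01 (0.941 to 1.08), but its genes went different ways. Pcna, with 617 of the 1066 old and 1954 of the 3832 young S phase UMIs, was at 1.14 (1.04 to 1.25). The median ratio of the 10 measured S phase genes was 0.855, and Ccne2 was at 0.576 (0.358 to 0.890). The count of 12 members called lower, Rrm2 included, was between 3 and 13 under other settings, with 11 to 27 members measured, and the G2/M ratio stayed between 0.306 and 0.573.

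In macrophage-like cells 9 of 10 measured G2/M genes and 2 of 8 S phase genes, Rrm1 and Tk1, were at least 2-fold lower in the old library, beside 1.29% of all genes, and none at least 2-fold higher, beside 7.81%. Mki67 had 5 old and 92 young UMIs, a ratio of 0.0881, and Cenpf, the exception, had 18 old and 42 young UMIs, a ratio of 0.695. The S phase sum was also lower there, at 0.768 (0.673 to 0.874). Across 8 other settings the macrophage-like G2/M ratio lay between 0.157 and 0.185, and at 1000 UMIs and 300 genes 17 of 18 measured G2/M genes were at least 2-fold lower.

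Lactotroph-like cells had 28 old and 153 young G2/M UMIs, a ratio of 0.288 (0.185 to 0.432), and the 3 measured genes, Mki67, Cenpf and Cenpa, were at least 2-fold lower, beside 2.57% of all genes. None of 10 measured members was at least 2-fold higher, beside 6.49%. When the cell cycle genes were left in the clustering, the class had 28 old and 83 young G2/M UMIs, a ratio of 0.499 (0.313 to 0.774), and no G2/M gene reached the 20 UMIs needed for a call. Their S phase sum was in contrast higher in the old library, at 153 CPM against 113 CPM in young cells, a ratio of 1.35 (1.15 to 1.60). Pcna led this, with 147 UMIs (83.0 CPM) in old and 160 UMIs (57.5 CPM) in young lactotroph-like cells.

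Corticotroph-like cells, the ACTH producers, had a G2/M ratio of 0.749 (0.609 to 0.915), and 4 of 10 measured genes, Mki67, Ccnb1, Ccnb2 and Cenpf, were at least 2-fold lower, beside 2.91% of all genes, and none at least 2-fold higher, beside 4%. At Leiden resolution 0.5, where the class held 509 old and 1653 young barcodes, the ratio was 0.290 (0.240 to 0.348), 11 of 15 measured genes were at least 2-fold lower, and carriers were 2 old and 78 young barcodes. Cenpe, a kinesin of the kinetochore, was found there in more cells than the carriers. It had 54 UMIs spread over 40 of 305 old and 136 UMIs over 116 of 1263 young corticotroph-like cells, 19.1 CPM in old and 17.6 CPM in young cells. Only 2 old and 13 young corticotroph-like cells were G2/M carriers. Over all young barcodes Cenpe was the G2/M gene with the smallest share of its UMIs in carriers, 63.8%, where the rule for carriers uses these genes themselves.

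T or NK cell-like cells had the highest S phase sum of the named classes in the old library, 251 CPM, against 207 CPM in young ones, a ratio of 1.21 (0.971 to 1.52). Their G2/M sum was 263 CPM in old and 505 CPM in young cells, a ratio of 0.521 (0.438 to 0.619). At least 2-fold lower were 3 of 8 measured G2/M genes, Ccnb2, Birc5 and Ube2c, beside 1.52% of all genes, and none at least 2-fold higher, beside 10.4%. Top2a and Mki67, in contrast, were at 43.5 and 56.2 CPM in old and at 35.9 and 56.5 CPM in young T or NK cell-like cells.

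Among named classes with at least 50 barcodes in each library, only monocyte-like cells had a higher G2/M sum in the old library. They had 330 UMIs (433 CPM) in 81 old and 199 UMIs (305 CPM) in 98 young barcodes, a ratio of 1.42 (1.19 to 1.70). None of 8 measured G2/M genes was at least 2-fold lower, beside 1.77% of all genes, or at least 2-fold higher, beside 7.14%. Top2a had 47 UMIs in 6 old and 22 UMIs in 5 young barcodes, and Mki67 61 UMIs in 13 old and 42 UMIs in 13 young barcodes. Their carriers were 6 of 81 old (7.41%, 2.77 to 15.4) and 3 of 98 young barcodes (3.06%, 0.636 to 8.69), whose intervals overlap. At a clustering resolution of 2 the class had no carriers, and its ratio was 0.699 (0.388 to 1.26).

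In the other named classes compared, few members were measured and none was at least 2-fold different. These were 2 members in B cell-like cells, beside 2.38% of all genes lower and 13.2% higher, 4 in endothelial cell-like cells, beside 4.97% lower and 7.68% higher, and 1 in pituicyte-like cells, beside 3.02% lower and 10.6% higher. Erythroid-like cells had too few old barcodes to be compared. Their G2/M sum was 198 CPM (144 to 267) in 46 old and 192 CPM (142 to 255) in 52 young barcodes.

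The cluster led by Cdca3, Cenpa and Cdc20 had 7 old and 700 young G2/M UMIs, 15.6 CPM in old and 955 CPM in young barcodes, a ratio of 0.0163 (0.00653 to 0.0338). Its clustering did not use these genes. All 12 measured G2/M genes were at least 2-fold lower in the old library, beside 3.78% of all genes, and 1 of 2 S phase genes, Tyms, was. None was at least 2-fold higher, beside 6.77%. Of the 12 G2/M genes 7 had 0 old UMIs and passed the limit of 20 UMIs through young barcodes alone. The late mitotic genes Cenpa and Cdc20 had 135 and 80 young UMIs, and 1 old UMI each. In the cluster led by S100a9 all 20 G2/M and 8 of 8 measured S phase genes were at least 2-fold lower in the old library, but so were 17.5% of all genes, none was at least 2-fold higher, beside 10.6%, and the cluster holds different cells in the 2 libraries.

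**Figure D4:**
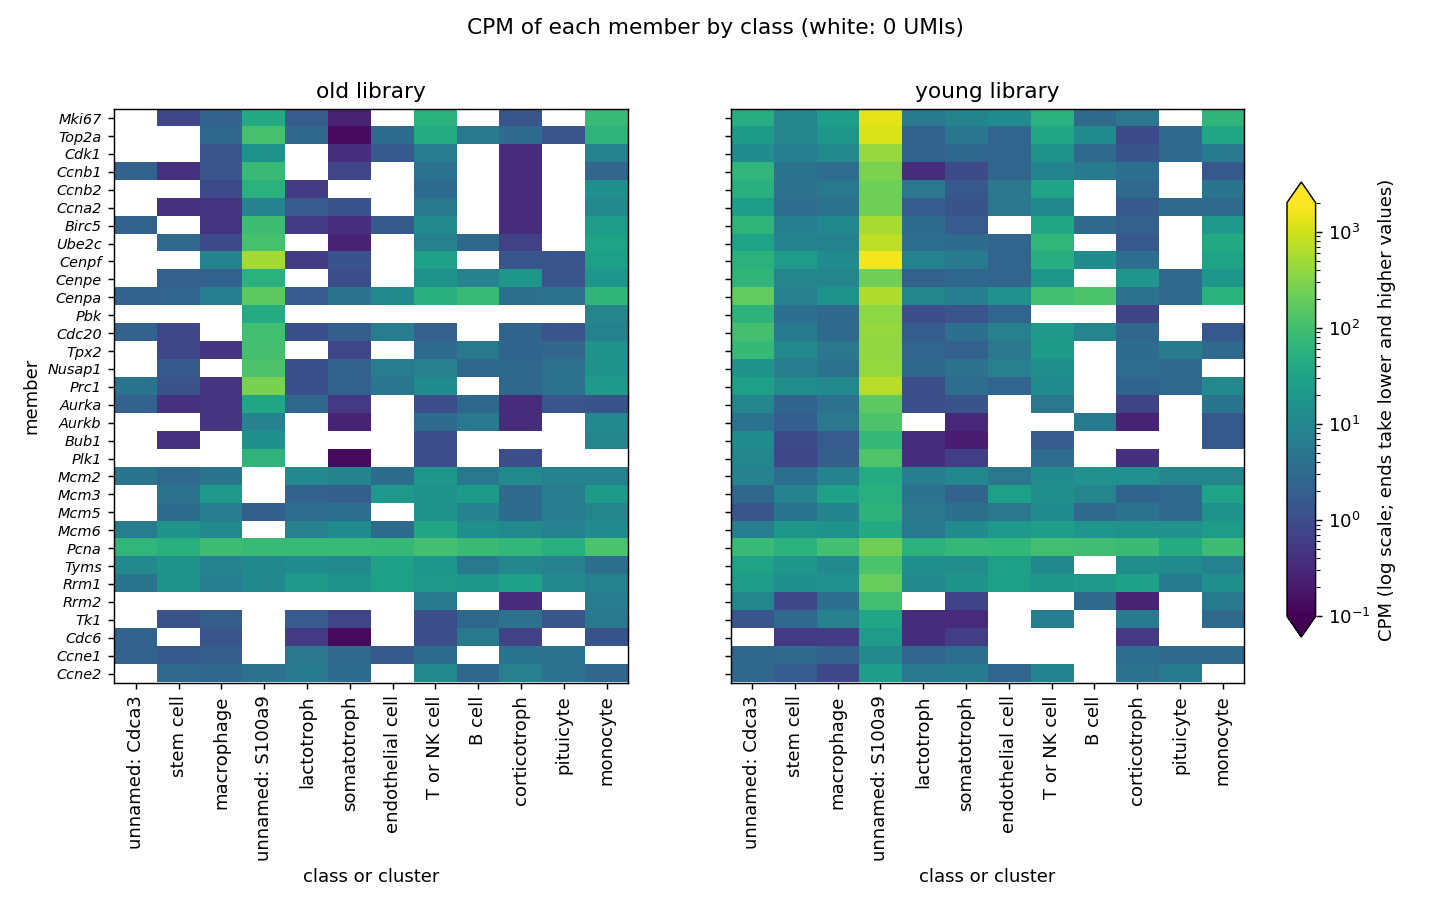
CPM (log colour scale) of each gene, in rows, by class or cluster, in columns, in the old (left) and the young library (right), with white where no UMI was counted. G2/M genes, in the upper 20 rows, have more white cells in the old panel, while Pcna has UMIs in every column of both panels.

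Malat1 made up less of the UMIs of G2/M carriers than of other barcodes. The median was 1.47% in 13 old carriers, with a range from 0.568 to 13.4%, and 0.849% in 190 young carriers. Barcodes that carried neither set had medians of 4.06% in the old and 2.98% in the young library. Under 0.5% Malat1 were 0 of 13 old carriers, with an upper limit of 24.7%, and 79 of 190 young carriers (41.6%, 34.5 to 48.9), against 12.7% of old and 13.4% of young barcodes that carried neither set.

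The low-Malat1 carriers came mostly from 1 cluster. Of the 79 young ones, 58 lay in the cluster led by Cdca3, where the median of all barcodes was 0.199% in the old and 0.0813% in the young library and Gh gave 45.5% of old and 59.7% of young UMIs. Other barcodes weighted to the same classes as the young carriers were under 0.5% in 39.0%, against 41.6% of carriers. The weighted Malat1 share of these others is a mean of class medians, not the same measure as the pooled median of carriers. It was 1.93%, beside a carrier median of 0.849%, and without the 2 unnamed clusters 3.32% beside 1.51%. How much of these gaps comes from the unlike measures was not tested. Within the cluster led by Cdca3 the 65 young carriers had a higher median than the rest, 0.162% against 0.0714%. Without the 2 unnamed clusters the median was 2.12% in 12 old and 1.51% in 86 young carriers, against 4.54% and 3.19% in barcodes of named classes that carried neither set. Then 15 of 86 young carriers (17.4%, 10.1 to 27.1) were under 0.5%, and 11.2% of other barcodes of the same classes, which lies within that interval.

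Depth moved with Malat1 and differed between carriers and others. In young somatotroph-like cells carriers had a median of 23997 UMIs and 1.06% Malat1, while other cells had 9578.5 UMIs and 2.66%. Set beside the 20 cells nearest in depth to each, which had a median of 1.44%, carriers were lower in 19 of 27. In young stem cell-like cells carriers were at 2.16% and cells of the same depth at 5.05%, with 9 of 13 lower. In macrophage-like cells the values were 1.57% and 2.55%, again with 9 of 13 lower. Corticotroph-like carriers went the other way, at 5.55% against 3.70%, with 5 of 13 lower. The medians thus lay in different directions between classes at the same depth. These sets held only 13 to 27 carriers, and a difference between classes was not tested. No class had an old set of 10 or more G2/M carriers to compare.

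**Figure D5:**
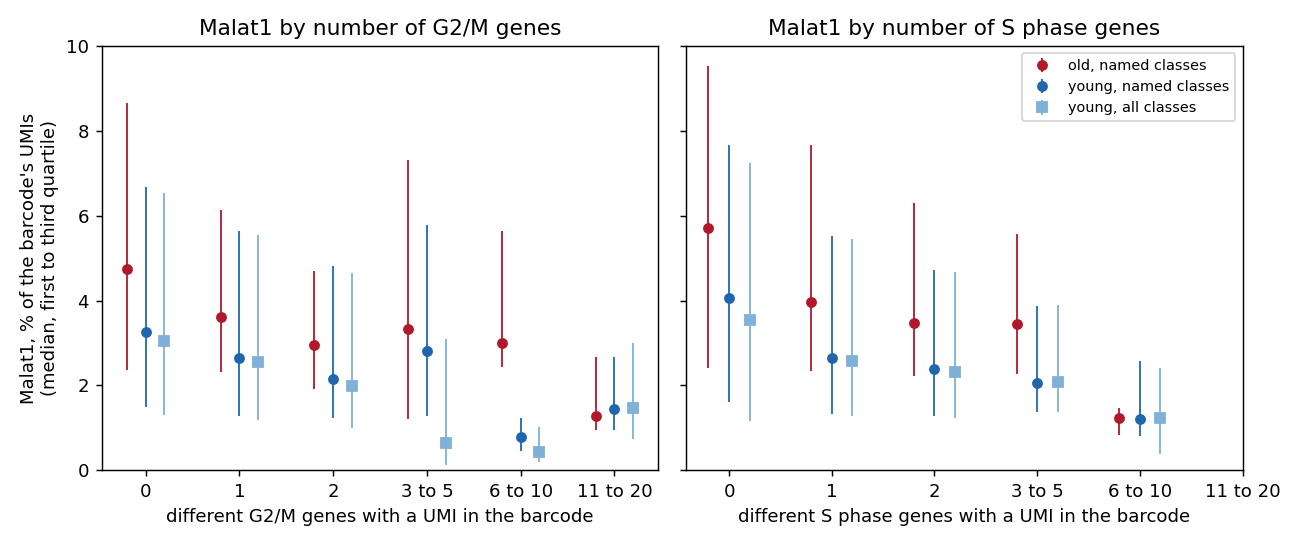
Median percent of a barcode's UMIs from Malat1, with lower to upper quartiles, by the number of different G2/M genes (left) or S phase genes (right) it holds, for old barcodes in named classes (red), young ones in named classes (dark blue) and all young ones (light blue squares); sets of fewer than 4 barcodes are not drawn. Young medians with all clusters drop to 0.643% at 3 to 5 and 0.424% at 6 to 10 G2/M genes and are 1.48% at 11 or more.

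By number of G2/M genes, the young median of Malat1 was 3.05% in barcodes with none, 2.56% with 1, 1.98% with 2, 0.643% with 3 to 5, 0.424% with 6 to 10 and 1.48% with 11 to 20. In named classes it was 3.27%, 2.64%, 2.15%, 2.82%, 0.775% and 1.45% over the same steps, with 47, 20 and 19 barcodes in the last 3. The value at 3 to 5 genes thus follows the unnamed clusters, and that at 6 to 10 genes was low with and without them. Old barcodes in named classes had 4.74% with none, 3.61% with 1 and 2.94% with 2, and only 12 barcodes had more.

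S phase carriers had medians of 3.33% Malat1 in 194 old and 1.97% in 385 young barcodes, and only 2 old and 36 young ones were under 0.5%. Beside cells of the same class and depth they were not lower throughout. Young somatotroph-like S phase carriers were at 1.56% and cells of the same depth at 1.30%, and old ones at 2.34% and 2.24%. Young stem cell-like ones were at 4.19% and 5.05%. Of young barcodes that carried both sets, 61 had a median of 1.59%, and 129 that carried G2/M genes only had 0.456%. Without the 2 unnamed clusters these medians were 1.76% in 30 and 1.34% in 56 barcodes.

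Single genes differed in the Malat1 share of the young barcodes that held them. Among G2/M genes the median was lowest for Pbk, 1.07%, Cdc20, 1.27%, Birc5, 1.29%, and Ccnb2, 1.30%, and highest for Cenpe, 2.73%, and Prc1, 2.72%. Among S phase genes it ranged from 1.57% for Rrm2 to 3.57% for Tk1. Barcodes with Pbk were under 0.5% in 39 of 106, and those with Prc1 in 18 of 179. These medians share barcodes, since many hold several of the genes.

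Genes other than the 32 that stood highest in young G2/M carriers, against other barcodes weighted to the same classes, included Hist1h3c, Hist1h1b, Mxd3, Depdc1a, Kif14, Sapcd2, Iqgap3, Pclaf and Hist1h2ab, with ratios between 82.1 and 175 after 0.5 UMIs were added to the observed and the expected count. The mixed cluster led by S100a9 enters these ratios. In named classes alone they were lower, from 12.3 for Iqgap3 to 60.7 for Pclaf, with Hist1h3c at 22.3 from 12 UMIs and Hist1h1b at 37.6. Hist1h3c, Hist1h1b and Hist1h2ab encode histones made as DNA is copied. Hist1h1b had 416 UMIs where 2.70 were expected from the other barcodes. The 5 lowest, Retnlg, Mmp9, Clec4d, Ptafr and Acod1, are genes of neutrophils or other myeloid cells, and the mixed cluster led by S100a9 sets their expected values.

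Of 65 other G2/M genes 29 were at least 2-fold lower in the old library, beside 2.78% of all genes, and 1, Anln, at least 2-fold higher, beside 8.8%, with a median ratio of 0.541 and 61.4% as the median share of their young UMIs in carriers. The 5 with the most young UMIs were Ube2s at 0.793 (0.768 to 0.820), Hmgb2 at 1.10 (1.06 to 1.14), Smc4 at 0.686 (0.644 to 0.730), Hjurp at 0.874 (0.825 to 0.926) and Pttg1 at 1.17 (1.10 to 1.24). These 5 had at most 22.4% of their young UMIs in carriers. Of 50 other S phase genes 8 were at least 2-fold lower and 1, Orc1, at least 2-fold higher, beside the same shares of all genes, with a median ratio of 0.875. Among the 5 with the most young UMIs, Slbp, Nasp, Dut and Rfc2 lay between 0.730 and 1.03.

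Genes that decide whether a cell enters the cycle included large differences. Of 23 genes of G1/S control 4 were at least 2-fold lower, beside 2.78% of all genes, and none at least 2-fold higher, beside 8.8%, with a median ratio of 0.937. Ccnd2, cyclin D2, had 303 CPM in old and 651 CPM in young barcodes, a ratio of 0.465 (0.453 to 0.477), and only 1.77% of its young UMIs were in carriers. Its relative Ccnd1 was at 0.341 (0.323 to 0.360), Ccnd3 at 0.921 (0.875 to 0.969), the kinase Cdk4 at 0.713 (0.678 to 0.751) and Tfdp2, a partner of the E2F factors, at 0.904 (0.856 to 0.953). The others at least 2-fold lower were E2f1 and E2f7. Of 10 CDK inhibitors and antiproliferative genes none was at least 2-fold lower and 1, Cdkn2a, was at least 2-fold higher, at 2.26 (1.54 to 3.30) from 58 old and 59 young UMIs. That count is near the 8.8% of all genes and is no result about the list. Cdkn1a, the inhibitor p21, was at 0.621 (0.597 to 0.646), Btg2 at 0.790 (0.783 to 0.797), Tob1 at 0.825 (0.794 to 0.857), Cdkn1b at 1.04 (0.996 to 1.09) and Btg1 at 1.07 (1.05 to 1.10).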

How the data were processed

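The authors deposited unnormalised UMI counts, 1 matrix of genes by barcodes for each library of pooled glands. Cell Ranger 6.0.2 and build GRCm39 are named in the submitters' processing notes, and the matrix headers name format version 4. No coordinates were taken from them. The members and gene lists were chosen with earlier results of these data known.

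From these counts, barcodes were filtered at 2000 UMIs, 500 genes and 15% mitochondrial UMIs. Scrublet's automatic threshold marked under 0.5% of barcodes, so removal took the top scores up to the rate expected for the number of barcodes, 766 old (7.83%) and 679 young barcodes (7.37%). Both libraries were clustered together with scanpy 1.11.5 (3000 variable genes, 40 components, 15 neighbours, Leiden resolution 1), without S phase and G2/M genes. A cluster that correlated at 0.95 or more with empty droplets was called free RNA. Clusters were named from marker lists, and the score limits for naming were set after the data were seen. Comparisons of a class needed 50 barcodes in each library.

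CPM were taken over UMIs without hormone and mitochondrial genes. Sums have exact Poisson intervals, ratios exact conditional Poisson intervals and shares exact Clopper-Pearson intervals, at 95%. Called means at least 2-fold, among genes with at least 20 UMIs over both libraries, and no p-value was computed. In simulated somatotroph-like sums of 14766 genes, 100 of 100 genes lowered 4-fold and 100 of 100 raised 4-fold were called, with intervals that covered the true ratio in 97% and 91%, and 1.65% of unchanged genes were called. The altered genes had at least 20 expected old UMIs, and sums were drawn with counting error only. These rates therefore do not cover members with fewer old UMIs, or UMIs concentrated in few barcodes.

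Genes named beyond the 32 are the 5 of each list with the most young UMIs, and the 10 highest and 5 lowest in young G2/M carriers among 5518 genes, of which 2 are not reported here. E2f1, E2f7, Anln, Orc1 and Cdkn2a were named after their values were seen. The alternatives tried concern filters, doublets, clustering, the limit for carriers, thinning, totals, free RNA and class mix. No cluster received the name of thyrotroph-, pericyte- or dendritic cell-like.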

Additional observations from a re-analysis of the deposited data

Results flagged for a closer look

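The G2/M sum of monocyte-like cells was 433 CPM in the old and 305 CPM in the young library, a ratio of 1.42. The other 9 named classes with at least 50 barcodes in each library had ratios below 1. The difference between classes was not tested. The S phase sum of lactotroph-like cells was 153 CPM in the old and 113 CPM in the young library, a ratio of 1.35, whereas it was 0.768 in macrophage-like and 0.865 in corticotroph-like cells, and this difference was not tested either. Among barcodes removed as doublets, which entered no comparison, 1 of 766 old and 26 of 679 young barcodes (3.83%) had UMIs of at least 3 G2/M genes. The median of these 26 was 12496.5 UMIs, against 11505 for all removed young barcodes.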

How the results depend on the processing

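The G2/M ratio, 0.455, stayed below 1 under all 14 alternatives, and those that moved it were 0.541 with CPM over all UMIs, 0.239 with classes weighted as in the young library, 0.377 with free RNA kept, 0.402 at 1000 UMIs and 300 genes, 0.485 at a mitochondrial limit of 10%, 0.587 without the 2 unnamed clusters and 0.255 without the top barcodes. The S phase ratio, 0.930, was 1.11 with CPM over all UMIs and 0.994 without the 2 unnamed clusters, and otherwise moved by less than its interval. Leaving out the top barcodes or the 2 unnamed clusters, the settings tried per class and the Malat1 share without hormone and mitochondrial UMIs were chosen after seeing the data.

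The old G2/M carrier share, 0.259%, was 0.0998% with free RNA kept. The young one, 1.41%, was 2.19% at a limit of 2 genes, 0.832% at 5 genes, 2.23% without thinning and 0.408% without the 2 unnamed clusters. The old S phase carrier share was 2.01% at 2 genes, 0.0287% at 5 genes, 0.111% with free RNA kept and 5.57% without thinning. The young one was 1.98% at 2 genes, 0.0586% at 5 genes and 4.51% without thinning. The young Malat1 median of G2/M carriers, 0.849%, was 1.28% over UMIs without hormone and mitochondrial genes, 1.45% at 2 genes, 1.27% at 800 genes per barcode and 1.51% without the 2 unnamed clusters. That of S phase carriers, 1.97%, was 3.31% over UMIs without hormone and mitochondrial genes, 2.20% at 2 genes and 1.46% at 5 genes.

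In somatotroph-like cells 12 of 27 members were called lower, Rrm2 among them with a bound of 1.84-fold, against 3 at Leiden resolution 0.5, 4 at resolution 2, 6 when clustered with the cell cycle genes, 6 at 1000 UMIs, 5 at a mitochondrial limit of 10%, 7 at 25% and 5 without doublet removal, and the count at least 2-fold higher was 0 under all 9. The causes of these shifts were not tested. Malat1 shares are already over all UMIs, so CPM over all UMIs gave no separate value. No paired analysis was possible because each age has 1 library.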
